A study of Mus musculus with 15 samples.

Results

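The 43 genes described here each had exactly 3 sites in mouse macrophages that were bound by both RevErbalpha and RevErbbeta. They were found in the authors' table of 1544 common sites, which assigns each site to a gene ID by nearness to its start. Of the 1175 protein-coding gene IDs in that table, 946 had 1 site, 166 had 2, 51 had 3, 9 had 4 and 3 had more than 4. Among the 51, 8 were left out by name (Abca1, Arntl, Cx3cr1, Fos, Nr1d1, Plaur, Tgfbr1 and Tlr2), which left 43 genes with 129 sites. The members were thus chosen by the number of called sites, and binding at these sites is a description and carries no test. Sites assigned to 1 gene are not independent of one another, and 2 members had a further site under another ID of the same gene: Lyn at chr4:3576261-3576417 and Elmo1 at chr13:20525206-20525362.

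RevErbalpha and RevErbbeta are nuclear receptors that lack the activation helix used by other members of their family and act as repressors, mainly by recruiting the corepressor NCoR with histone deacetylase HDAC3. They are part of the circadian clock, where they repress Arntl, and in macrophages they bind largely at enhancers set up by lineage factors such as PU.1. Active enhancers are themselves transcribed into short capped RNAs, so nascent RNA can be read at the site as well as over the gene.

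Of the 15 samples in the labels, none with a second sample in its group, 7 had values here. The labels give all 15 a C57Bl6 background, including those from a cell line, whose strain was not checked. Binding was read by streptavidin pull-down and sequencing (ChIP-seq) in RAW macrophages, a mouse macrophage line, that expressed RevErbalpha or RevErbbeta with a biotin tag (BLRP), beside control RAW cells with the biotin ligase BirA. Capped 5' ends of nascent RNA were read by 5'GRO-seq in control RAW cells (BTEV-Ctrl) and in RAW cells expressing tagged RevErbalpha (BLRP-RevErba). Nascent RNA was read by GRO-seq in bone marrow derived macrophages, grown out in L-cell medium and then M-CSF, that carried RevErbalpha flox/flox and RevErbbeta flox/flox alleles (WT) or the same alleles with Tie2-Cre (DKO). Both genotypes carry the floxed alleles, and the Tie2 promoter drives Cre in endothelial and blood-forming cells rather than in macrophages alone. Whether each tagged RAW line is 1 clone, and how many mice gave the marrow, is not given in the sources used here.

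Each RevErb had 3 ChIP-seq runs and each genotype 2 GRO-seq runs, all counted as repeat runs of 1 sample. No difference between conditions therefore has a test, and the run values show only the spread between runs. ChIP-seq depth ran from 598490 to 5276592 tags for the RevErb runs, with 10548880 in the BirA library, 18708148 and 7238710 in the control and tagged 5'GRO-seq libraries, and 34852907 to 46649008 in the GRO-seq runs. Of the 14 macrophage markers looked up, 5 were in the table (among them Cd14, Csf1r, Lyz1 and Mpeg1, at GRO-seq levels of 4.58 to 12.57 on the log2 scale), and none of the 15 markers of T cells, B cells, fibroblasts, endothelium or hepatocytes was. The table lists only genes with a common site, so a missing marker does not show that its cell type was absent. GRO-seq of the targeted gene Nr1d1 read 7.91 and 7.48 in WT, and it read 9.44 and 9.56 in DKO, which is higher by 1.81. The part of the gene removed by Cre is not given in the sources used here, so this whole-gene value does not check the deletion; WT and DKO are used below as the labels of the libraries, for every direction drawn from them.

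The members' sites lay mostly away from gene starts. By the authors' histone mark classes, 65 of the 129 sites (50.4%) were genic and enhancer-like (high H3K4me1, low H3K4me3), against 44.5% of all 1544 sites. The authors' label for these is enhancer only, read here as genic beside their intergenic class. Such a site can lie outside its assigned gene, as at -242.583 kb in Btg1. A further 49 sites (38.0%, against 36.0%) were intergenic and enhancer-like. The remaining 15 sites (11.6%, against 19.5%) had more H3K4me3 than H3K4me1, as gene starts usually do. The median distance from a site to the start of its gene was 25.5 kb, beside 22.4 kb over all sites, 19.3 kb for genes with 1 site, 27.9 kb for genes with 2 and 84.4 kb for genes with 4 or more. Of the 129 sites, 7 lay within 1 kb of a start (5.4%, against 9.8% of all sites). Within 10 kb lay 29 (22.5%, against 32.8%), and 20 lay beyond 100 kb (15.5%, against 13.2%). Distances are to the authors' nearest start, which at 7 sites, in Mtss1, Nav2, Sp3 and Tmem229b, carried another ID than the assigned gene.

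Whole members fell into a few arrangements. In 29 genes all 3 sites were enhancer-like. All 3 were genic in Anxa5, Dot1l, Igf2bp2, Ninj2, Smad3, Tbxas1 and Ubtd1, and all 3 were intergenic in 7 genes, among them Atp6v1b2, Dusp1, Ier5, Klf6, Mapkapk2 and Slc44a1. The stretch from the first to the last site had a median of 37.2 kb. It was shortest in Ubtd1, at 5739 bp, and stayed within 10 kb in Ccdc97, Lyn, Atp6v1b2 and Mapkapk2 as well. It was longest in Klf6, at 584.657 kb, and exceeded 100 kb in 10 genes. In 5 genes, among them Btg1, Pde4d, Eea1 and Fam78b, every site was more than 100 kb from the start. The sites of Eea1, an endosome tether, and of Btg1, an antiproliferative partner of the mRNA deadenylase complex, stood side by side on chromosome 10, with 6 sites in 277.824 kb and 112.441 kb between the nearest sites of the pair. Assignment at such distances rests on nearness alone, and 11 member sites of 5 genes had a site of another gene ID within 50 kb, among them all 3 sites of Dot1l beside a site of Ap3d1. The Lyn sites are among the 11 only through another ID of Lyn itself.

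**Figure D1:**
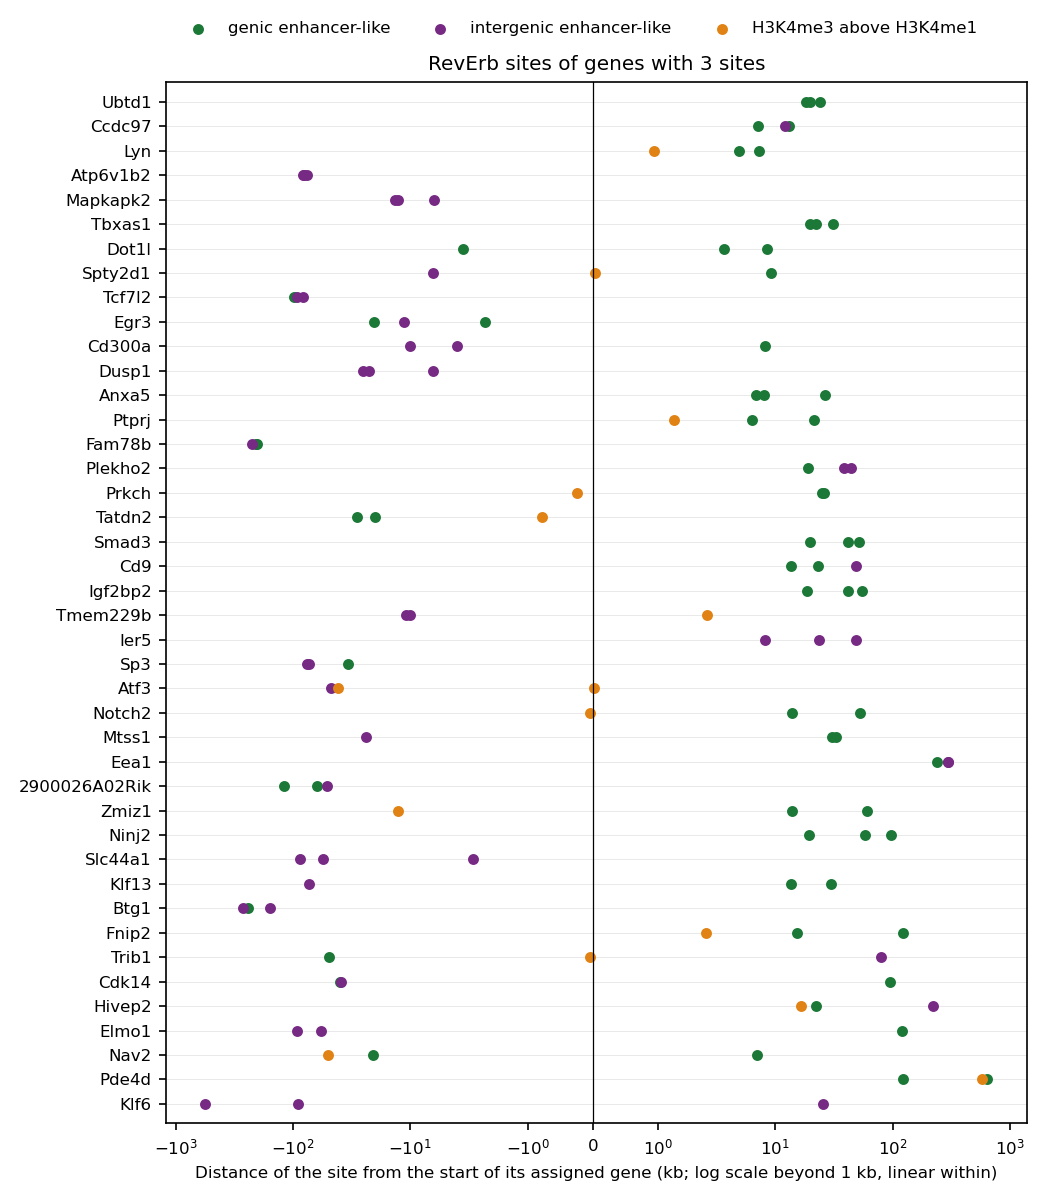
Distance of each site from the start of its assigned gene (kb, log scale beyond 1 kb and linear within), 1 row per gene, for 42 of the 43 genes, ordered by the stretch from first to last site. Colours give the authors' class. Orange sites (H3K4me3 above H3K4me1) number 15, and the 7 sites within 1 kb of a start are all orange.

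The 7 sites within 1 kb of a start belonged to Atf3, Lyn, Notch2, Prkch, Spty2d1, Tatdn2 and Trib1. Promoter sequence from the RefSeq promoter table (build GRCm38.p6) is shown for 3 of these, Atf3, Notch2 and Spty2d1, whose site overlaps the window of that table. They are not the only members with a site at the start. The Trib1 site was centred at -0.042 kb and the Prkch site at -0.246 kb, and no sequence is shown for these. Each line is the 250 bases before the RefSeq start, and capitals mark GC boxes (GGGCGG on either strand; neighbouring matches may overlap), the element bound by Sp-family factors including the member Sp3. The RevErb site covered positions -60 to 96 from the authors' start in Atf3, -127 to 29 in Notch2 and -40 to 116 in Spty2d1; whether that start is the RefSeq start was not checked.
Atf3, chr1:191183334-191183583, minus strand: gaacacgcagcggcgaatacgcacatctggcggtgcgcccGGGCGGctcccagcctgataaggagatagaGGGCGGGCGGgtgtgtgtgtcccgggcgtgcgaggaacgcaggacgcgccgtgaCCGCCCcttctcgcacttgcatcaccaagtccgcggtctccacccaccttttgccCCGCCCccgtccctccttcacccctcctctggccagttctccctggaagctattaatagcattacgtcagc
Notch2, chr3:98013288-98013537, plus strand: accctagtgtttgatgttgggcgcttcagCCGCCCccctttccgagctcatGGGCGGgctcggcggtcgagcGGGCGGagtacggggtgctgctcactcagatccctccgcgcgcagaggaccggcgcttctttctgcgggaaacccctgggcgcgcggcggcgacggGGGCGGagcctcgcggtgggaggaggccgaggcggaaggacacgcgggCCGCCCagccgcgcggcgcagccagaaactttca
Spty2d1, chr7:47008415-47008664, minus strand: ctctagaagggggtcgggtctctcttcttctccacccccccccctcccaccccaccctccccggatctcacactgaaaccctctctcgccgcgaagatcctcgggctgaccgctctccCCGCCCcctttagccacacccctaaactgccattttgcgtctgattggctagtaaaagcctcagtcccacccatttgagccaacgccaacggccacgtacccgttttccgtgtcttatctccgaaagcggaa
These windows held 5 GC boxes in Atf3, 5 in Notch2 and 1 in Spty2d1. If the authors' start is the RefSeq start, the boxes of Atf3 (-210 to -66) and Spty2d1 (-132 to -127) lay outside the RevErb site. In Notch2 those at -82 to -77 and -34 to -29 lay inside it. None of the 3 windows held AGGTCA, the core of the element that RevErb and ROR receptors bind, on either strand. The part of each site past the start was not read. Of the 35 members in the promoter table, 26 had a GC box in this window, against 32.7% of 32851 promoters. Those promoters are not limited to genes with a RevErb site or matched for transcription level. The GC box share is therefore not shown to be particular to the members. AGGTCA was found in 1 member promoter, that of 2900026A02Rik, against 14% of all promoters, and the full RevErb and ROR element, with its AT-rich flank, in none, against 0.177%. The CRE TGACGTCA was found in Dusp1 (1.55% of all promoters), the PU.1 motif GAGGAAGT in Mapkapk2 (2.44%), the AP-1 motif TGANTCA in Tbxas1 (6.75%) and the C/EBP motif TTGCNNAA in Ccdc97 and Cd300a (9.56%). Both strands were read for each motif, and a match is a description of letters only.

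Binding is given as log2 tags per 10000000 in the 157 bp of a site. The median over the 129 sites of the mean of all 6 runs was 5.83, beside 5.54 over all sites, 5.47 for genes with 1 site, 5.53 for genes with 2 and 5.92 for genes with 4 or more. The median was 5.69 for RevErbalpha, 6.03 for RevErbbeta and 0.96 for the BirA library. At 125 of the 129 sites all 6 runs were above BirA. RevErbbeta was higher than RevErbalpha at 92 of the 129 sites (71.3%; 66.1% of all sites), with a median difference of 0.28. That difference rested on single runs: it was -0.03 without RevErbbeta run 2, 0.08 without RevErbalpha run 1, 0.51 without RevErbbeta run 3 and 1.0 in the deeper run or runs of each protein.

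Anxa5, which codes for a calcium-dependent binder of phosphatidylserine, had the highest mean binding over 3 sites, 7.52. Its strongest site, 6.85 kb into the gene at chr3:36367878-36368034, read 7.71, 8.26 and 8.08 in the RevErbalpha runs and 9.32, 9.05 and 9.05 in the RevErbbeta runs, against 1.77 in BirA. The next highest means were 6.98 in Smad3, the transducer of TGF-beta signals, 6.89 in Cdk14, a cyclin-dependent kinase, 6.85 in Ier5, an immediate early gene, 6.53 in Btg1 and 6.44 in Ninj2, a ninjurin of the plasma membrane. In Smad3 the 3 sites were alike, at 6.89, 6.75 and 7.28. Cdk14 and Ier5 each had 1 leading site, at 8.14 in Cdk14 (chr5:5285969-5286125) and at 7.82 in Ier5 (chr1:156923133-156923289). The lowest means were 4.62 in Tmem229b, 4.71 in Tatdn2, a TatD-family nuclease, and 4.89 in Dusp1, the MAP kinase phosphatase. Most of the variance of binding lay between the sites of 1 gene, and 16.2% lay between members. The 15 sites with more H3K4me3 had a median of 5.34, against 5.87 at genic and 5.78 at intergenic enhancer-like sites.

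**Figure D2:**
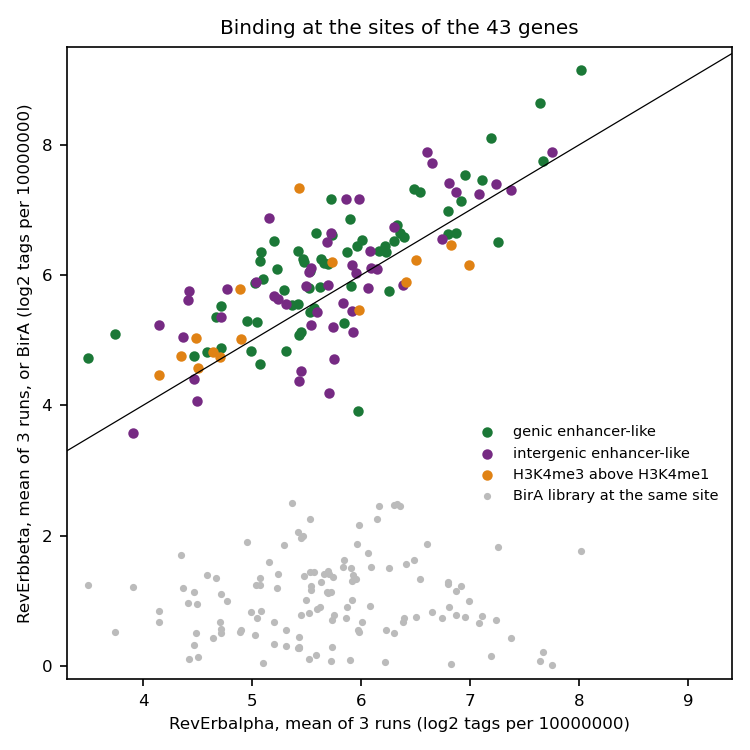
RevErbbeta against RevErbalpha binding at the 129 sites (each the mean of 3 runs, log2 tags per 10000000), coloured by class, with the line of equality; grey points give the BirA library at the same site on the vertical axis. Of the 129 sites, 92 lie above the line, and BirA had a median of 0.96.

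The 5'GRO-seq comparison asked how capped nascent RNA at the sites differed between RAW cells with tagged RevErbalpha and control RAW cells. Values are log2 tags per 10000000 in 500 bp, and a site is counted as lower or higher when the difference was at least 1 in size. The tagged library was lower at 29 of the 129 sites (22.5%), against 20.0% of all sites, and higher at 9 (6.98%), against 4.92%. Differences of any size were below 0 at 85 sites (65.9%), against 62.6%. The median difference was -0.32, beside -0.23 over all sites, so most of the members' shift was that of the whole table. Centred on the median of all sites, 26 member sites were lower (16.5% of all sites) and 11 higher (8.23%).

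In 5'GRO-seq all 3 sites were below 0 in 13 genes (30.2%), 2 in 18, 1 in 10 and none in 2. Centred on the median of all sites, 9 genes had all 3 below 0, a setting not counted for other genes. Among the 166 genes with 2 sites, where fewer sites must be low, 53.0% had all sites below 0 and 12 had all at -1 or less. All 3 were at -1 or less in 4 genes: Igf2bp2 (mean of 3 sites -3.01), Atp6v1b2 (-2.96), Tbxas1 (-2.14) and Dot1l (-1.97). Differences between genes made up 38.9% of the variance over the 129 sites, beside 25.5% for the 166 genes with 2 sites. It was 1.5% once these 4 genes were left out, a step that lowers it by construction, and the value for genes with 2 sites keeps its own 12 such genes. Each library is 1 sample and sites that lie close share their surroundings, so this is a description of the pair of libraries.

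**Figure D3:**
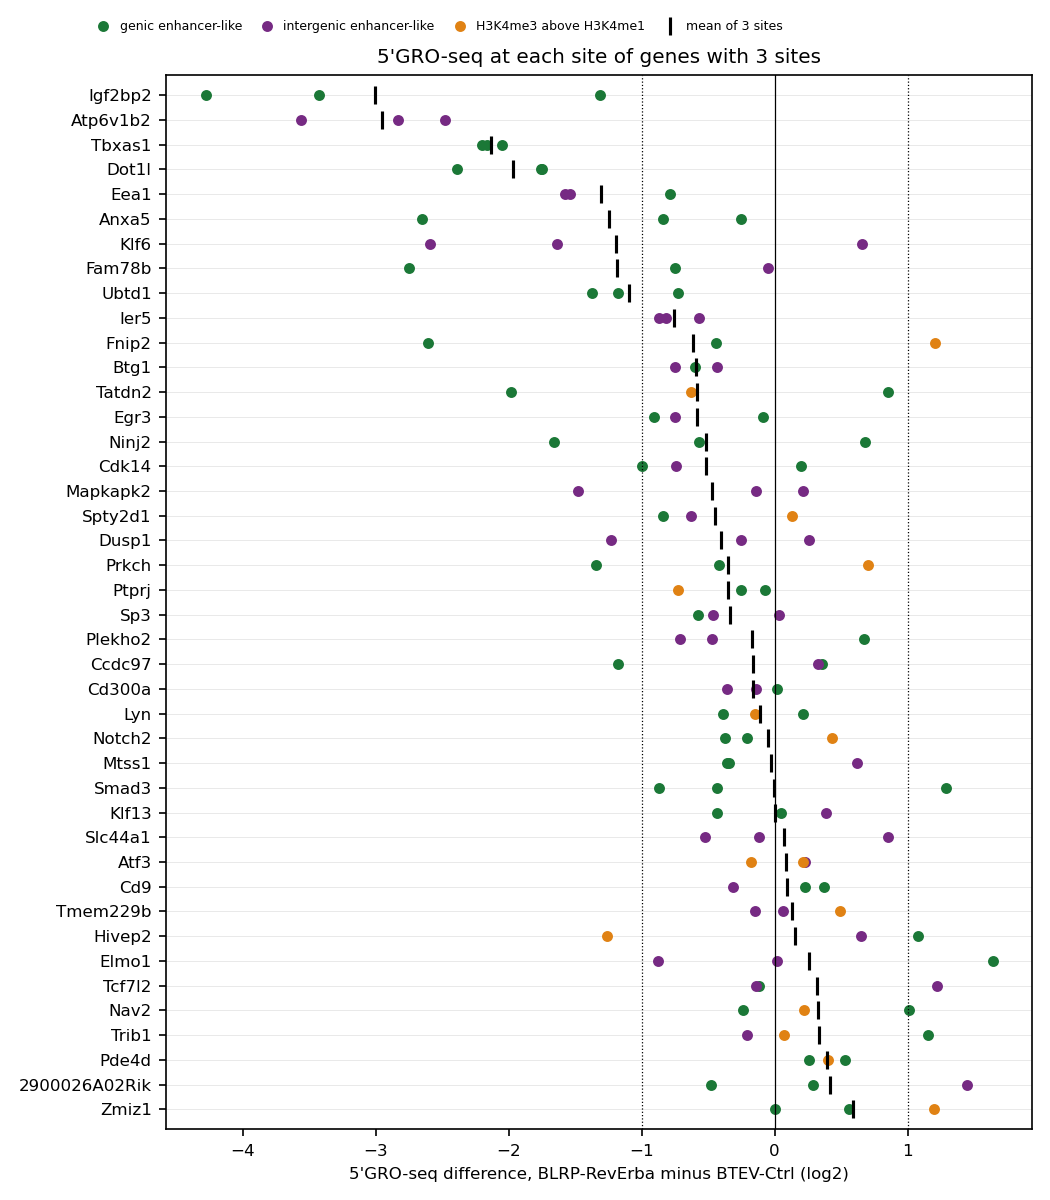
5'GRO-seq difference (log2, BLRP-RevErba minus BTEV-Ctrl) at each site, 1 row per gene for 42 of the 43 genes, ordered by the mean of its 3 sites (black bar), coloured by class; dotted lines mark -1 and 1. Igf2bp2, Atp6v1b2, Tbxas1 and Dot1l have all 3 points left of -1, and 2 genes, Pde4d and Zmiz1, have none left of 0.

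Igf2bp2, an RNA-binding protein of mRNA stability and translation, read 3.82, 6.0 and 2.72 at its 3 genic sites in the control library and 0.39, 1.72 and 1.41 in the tagged one. The site at chr16:22121335-22121491, 42.0 kb from the start, gave the most negative difference of all member sites, -4.28. It held about 119 tags in the control library and about 1.66 in the tagged one. These are raw tags, not scaled for the lower depth of the tagged library, so their ratio overstates the difference. The other sites of Igf2bp2, at 54.9 and 18.6 kb, gave -3.43 and -1.31. They held about 24.8 and 10.5 tags in the control library, so these differences rest on few tags. With 10 instead of 1 added before the logarithm the mean for Igf2bp2 was -1.38.

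Atp6v1b2, a subunit of the proton pump that acidifies lysosomes, read 6.03, 3.16 and 5.97 in the control library and 2.47, 0.33 and 3.49 in the tagged one. The differences were -3.56, -2.83 and -2.48 at 3 intergenic sites that lay between 75.958 and 82.684 kb upstream of the start (chr8:71529873-71530029, chr8:71531982-71532138 and chr8:71536599-71536755). Control tags were about 121, 15 and 116. The first of these sites was also the weakest bound of the 129, with a mean of 3.75, while the others were at 7.32 and 7.11.

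Tbxas1, thromboxane A synthase, had the most even differences of the 4. Its 3 genic sites, between 19.681 and 31.099 kb into the gene (chr6:38888588-38888744, chr6:38891205-38891361 and chr6:38900006-38900162), read 8.35, 8.08 and 6.80 in the control library and 6.30, 5.92 and 4.6 in the tagged one. The differences were -2.05, -2.16 and -2.20, with about 614, 509 and 208 tags in the control library, the deepest sites of the 4 genes. Dot1l, a histone methyltransferase tied to transcript elongation, read 5.95, 3.56 and 4.88 in the control and 4.19, 1.17 and 3.13 in the tagged library. Its differences were -1.76, -2.39 and -1.75 at sites from -3.588 to 8.52 kb of the start.

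Eea1 (mean -1.30) and Anxa5 (-1.25) followed. In Eea1 the 3 sites went from 6.64 to 5.85, from 5.68 to 4.10 and from 5.79 to 4.25. In Anxa5 the values went from 4.68 to 3.84, from 3.29 to 3.04 and, at the strongest bound site of all members, from 5.19 to 2.54. Klf6 (-1.19), Fam78b (-1.18) and Ubtd1 (-1.09) were the other members with a mean under -1. At the other end stood Zmiz1 (0.59), a PIAS-like coactivator, 2900026A02Rik (0.42) and Pde4d (0.40), a cyclic AMP phosphodiesterase. Zmiz1 went from 2.56 to 3.76, from 6.58 to 6.58 and from 4.78 to 5.34. The 3 sites of 2900026A02Rik went from 2.17 to 3.62, from 5.48 to 5.77 and from 5.11 to 4.63. Pde4d went from 6.67 to 7.20, from 0.95 to 1.35 and from 7.75 to 8.01.

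The 9 sites with a difference of 1 or more lay in 9 genes. With 10 added before the logarithm, 2 sites were higher by 1 or more (2.20% of all sites). The tagged library was also the shallower one, with 8 member sites under 1 tag against 4 in the control, and the part of depth in these counts was not tested. By class the median difference was -0.43 at genic enhancer-like sites, -0.31 at intergenic ones and 0.21 at sites with more H3K4me3, beside -0.33, -0.21 and -0.09 over all sites of these classes. The share at -1 or less was 29.2%, 18.4% and 6.67% of the members' sites, beside 25.8%, 17.1% and 12.3% of all. Across the 129 sites the difference and mean binding had a Spearman rho of -0.25, and across all 1544 sites -0.24; the sites share the same libraries.

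The GRO-seq comparison asked how nascent transcription of the genes differed between DKO and WT macrophages. The median difference of the 43 genes was 0.11 on the log2 scale, beside 0.04 over all 1220 genes of the table, 0.03 for genes with 1 site and 0.06 for genes with 2. It was 0.17 without WT run 1, 0.035 without WT run 2, 0.145 without DKO run 1 and 0.045 without DKO run 2. Over all genes the median was 0.0475, 0.03, 0.07 and 0.01 in the same order. In bulk cultures, fewer cells transcribing a gene and less transcription per cell cannot be told apart. Of the 43 genes 30 (69.8%) were above 0, against 59.6% of all genes. By the rule used for genes, a difference of at least 0.5 with runs that do not overlap, 1 member was higher (Egr3; 1.97% of all genes) and none was lower (0.738%). Without WT run 1 the rule counted 5 members higher (among them Dusp1, Egr3, Ier5 and Igf2bp2; 5.16% of all genes), and without DKO run 1 also 5 (among them Dusp1, Egr3, Igf2bp2 and Trib1; 5.49%).

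At any size, both DKO runs were above both WT runs in 13 genes (30.2%), against 18.4% of all genes. They included Egr3, Igf2bp2, Ninj2, Ier5, Anxa5, Trib1, Ccdc97, Mapkapk2, Dot1l, Smad3, Klf13 and Tcf7l2. Both DKO runs were below both WT runs in 4 genes (9.30%), against 10.0%: Tatdn2, Prkch, Slc44a1 and Cd9. The members had a higher median GRO-seq level than the table, 11.3 against 9.89, and a smaller spread between runs (SD 0.18 against 0.24 for WT). Among the 37 members above the median level, 9 had DKO above WT (16.7% of all genes above that level) and 4 below (10.0%). With 1 run left out the counts of members apart were 15 to 30 upward and 6 to 11 downward, the highest in both cases without WT run 1. The same counts over all genes were 28.6 to 43.9% upward and 22.2 to 28.4% downward. Without WT run 2, the 15 members apart upward stood beside 37.1% of all genes.

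**Figure D4:**
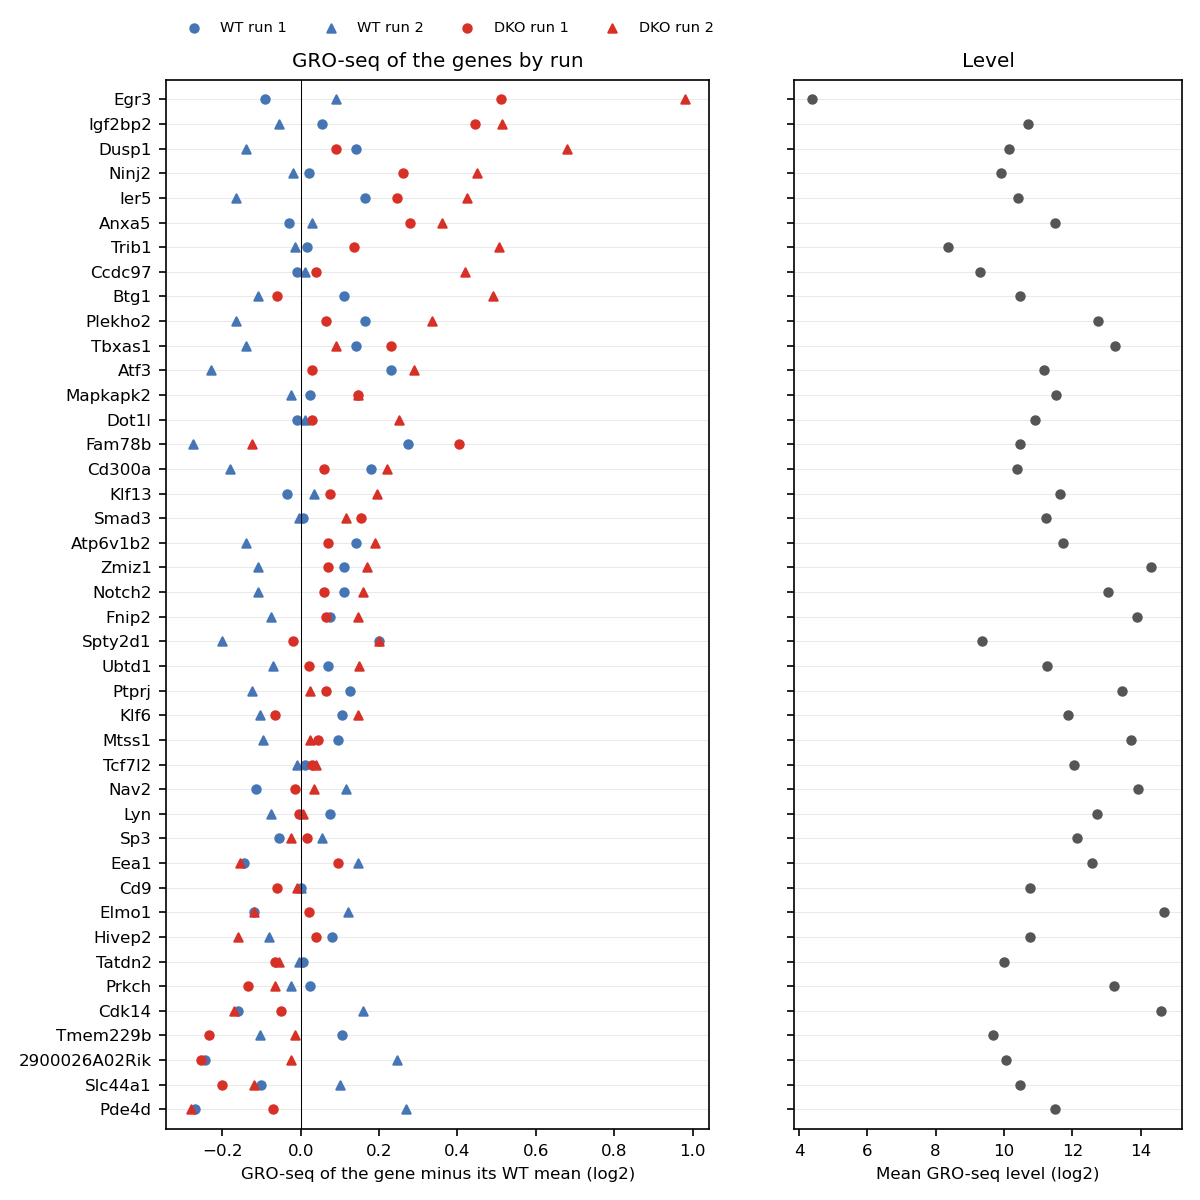
GRO-seq of 42 of the 43 genes by run, as the difference from the mean of its 2 WT runs (log2), ordered by the DKO minus WT difference, with the mean level (log2) of all 4 runs at the right. Egr3 leads at 0.75 and has the lowest level, 4.37; red points lie right of both blue points in 12 of the genes plotted.

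Transcription factors, chromatin proteins and their partners made up 14 of the 43 members, and in 7 of these 14 the DKO runs lay above the WT runs, against 30.2% of the members and 18.4% of all genes. The group was made after the members were known, and the difference was not tested. Egr3, an immediate early zinc finger factor, read 3.91 and 4.09 in WT and 4.51 and 4.98 in DKO, a difference of 0.75 at the lowest level of all members. Its sites in RAW cells went from 9.77 to 9.68, from 7.61 to 6.86 and from 5.91 to 5.0 in 5'GRO-seq. Ier5 read 10.41 and 10.08 against 10.49 and 10.67, a difference of 0.34, and its 3 sites were at -0.57, -0.87 and -0.82.

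Smad3 differed by 0.14 with narrow runs, 11.18 and 11.17 against 11.33 and 11.29. Its 5'GRO-seq differences were mixed, -0.87, -0.43 and 1.29. Dot1l read 10.84 and 10.86 against 10.88 and 11.10 (0.14), Klf13, a Krüppel-like factor, 11.55 and 11.62 against 11.66 and 11.78 (0.14), and Tcf7l2, the factor that pairs with beta-catenin, 12.05 and 12.03 against 12.07 and 12.08 (0.04). The runs of these genes did not overlap, but the differences were small.

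In the other 7 the runs overlapped. Atf3, a stress-induced factor of the ATF and CREB family, read 11.33 and 10.87 in WT and 11.13 and 11.39 in DKO. Its promoter site, with the sequence above, gave the most 5'GRO-seq signal of all member sites, 11.45 in control and 11.66 in tagged cells, and its upstream sites were at -0.18 and 0.23. Klf6, another Krüppel-like factor, read 11.96 and 11.75 against 11.79 and 12 in DKO, while its sites went from 0.12 to 0.78, from 4.10 to 1.51 and from 7.53 to 5.89. The first of these was 559.158 kb away and held less than 1 tag in both libraries. Spty2d1, a histone chaperone, read 9.52 and 9.12 against 9.30 and 9.52, and at its promoter 9.65 and 9.78 in control and tagged cells. Its other sites were at -0.84 and -0.63. Btg1 read 10.46 and 10.24 against 10.29 and 10.84, with sites at -0.43, -0.60 and -0.75. Zmiz1 read 14.34 and 14.12 against 14.30 and 14.40. Sp3 (-0.01) and Hivep2, a large zinc finger protein (-0.06), completed the group.

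Kinases, phosphatases and other signalling enzymes made up 8 members, with a median GRO-seq difference of 0.02. Dusp1, which ends MAP kinase signals, had the highest difference of these, 0.39, but its runs overlapped: 10.09 and 9.81 in WT against 10.04 and 10.63 in DKO. Its 5'GRO-seq values went from 7.24 to 6.99, from 4.68 to 3.45 and from 5.79 to 6.05. Trib1, a pseudokinase that directs C/EBPalpha to degradation, read 8.21 and 8.18 against 8.33 and 8.70 (0.32). At its promoter 5'GRO-seq read 9.25 and 9.32, and its other sites were at 1.15 and -0.21. Mapkapk2, a kinase downstream of stress-activated MAP kinases, read 11.47 and 11.42 against 11.59 and 11.59 (0.15). Its 3 sites, within 7056 bp of one another, were at 0.21, -1.48 and -0.14.

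Lyn, a Src-family kinase of myeloid cells, had the same mean in both genotypes, 12.81 and 12.66 against 12.73 and 12.74. Its sites went from 7.68 to 7.53, from 5.13 to 4.74 and from 3.16 to 3.37. Prkch, a protein kinase C, was lower with runs apart, 13.29 and 13.24 against 13.13 and 13.20 (-0.10). Its promoter site was higher in the tagged library, 7.15 to 7.85, while the sites inside the gene went from 6.5 to 6.08 and from 6.08 to 4.74. Cdk14 read 14.48 and 14.80 against 14.59 and 14.47, with sites at -1.0, -0.74 and 0.20. Pde4d read 11.30 and 11.84 against 11.50 and 11.29, the most negative member at -0.18, with overlapping runs. Ptprj, a receptor-type tyrosine phosphatase, differed by 0.05, and its 3 sites were all below 0 (-0.25, -0.07 and -0.73).

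Surface and membrane proteins made up 5 members. Ninj2 was the highest of these: 9.76 and 9.72 in WT against 10.00 and 10.19 in DKO (0.36). Its sites went from 7.28 to 7.96, from 4.43 to 2.77 and from 7.14 to 6.57. Notch2, the Notch receptor, read 13.10 and 12.88 against 13.05 and 13.15. Its promoter site, shown above, went from 8.18 to 8.61 and its intragenic sites from 4.94 to 4.57 and from 4.27 to 4.06. Slc44a1, a choline transporter, was lower in DKO (10.46 and 10.66 against 10.36 and 10.44, -0.16), and so was the tetraspanin Cd9 by a very small amount (10.78 and 10.78 against 10.72 and 10.77, -0.04). Cd300a, an inhibitory receptor of myeloid cells, differed by 0.14 with overlapping runs.

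The cytoskeleton, membrane traffic and the lysosome accounted for 7 members. Anxa5 was the only member of this group with DKO runs above WT runs, 11.29 and 11.35 against 11.60 and 11.68 (0.32). Atp6v1b2, in spite of the low 5'GRO-seq at its sites, read 11.79 and 11.51 against 11.72 and 11.84, with overlapping runs. Eea1 also had overlapping runs, 12.45 and 12.74 against 12.69 and 12.44 (-0.03). Elmo1, which works with DOCK proteins to activate Rac during engulfment, had the highest GRO-seq signal of all members, 14.60 and 14.84 against 14.74 and 14.60. Its sites went from 4.14 to 4.16, from 5.96 to 5.08 and from 2.20 to 3.84. The last pair rests on about 6.78 raw tags in the control library and 9.65 in the tagged one. The further site under another ID of Elmo1, not counted among these, had a 5'GRO-seq difference of -1.82. Plekho2, with a pleckstrin homology domain (0.20), Mtss1, an actin and membrane binding protein (0.04), and Nav2, a neuron navigator (0.01), had overlapping runs.

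The last 9 members are enzymes, RNA-binding or little described proteins, and their 27 sites had a median 5'GRO-seq difference of -0.73. Of these sites 12 were at -1 or less (20.0% of all sites), and Igf2bp2 and Tbxas1 hold 6 of the 12. Igf2bp2 read 10.52 and 10.41 in WT against 10.91 and 10.98 in DKO, a difference of 0.48. Tbxas1 read 13.31 and 13.03 against 13.40 and 13.26 (0.16), with overlapping runs. Ccdc97, a coiled-coil protein, read 9.16 and 9.18 against 9.21 and 9.59 (0.23). Its sites were at 0.36, 0.33 and -1.18. Tatdn2 read 10.05 and 10.04 against 9.98 and 9.99 (-0.06). Its promoter site was at -0.63 and its upstream sites at -1.98 and 0.85. Ubtd1, with a ubiquitin-like domain, read 11.29 and 11.15 against 11.24 and 11.37, and its 3 close sites were at -1.18, -0.73 and -1.37. Fnip2, a partner of folliculin (0.11), Fam78b (0.14), Tmem229b (-0.13) and 2900026A02Rik (9.88 and 10.37 against 9.87 and 10.10, -0.14) had overlapping runs. Groups by role were made after the members were known and carry no test.

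At the sites themselves, GRO-seq in bone marrow macrophages differed little between genotypes. The median difference over the 129 sites was 0.09, beside 0.03 over all sites, and 79 sites (61.2%) were above 0, against 52.5%. A difference of 1 or more was seen at 2 sites (3.37% of all sites), 1.71 at the Tcf7l2 site at -92.295 kb and 1.24 at the Egr3 site at -11.234 kb. A difference of -1 or less was also seen at 2 (2.20% of all sites), -1.35 for 2900026A02Rik and -1.13 for Slc44a1. At the Egr3 site the level went from 2.77 in WT to 4.0 in DKO, and at the Tcf7l2 site from 1.92 to 3.63. All 3 sites were above 0 in 12 genes, among them Egr3, Anxa5, Ninj2, Atp6v1b2 and Notch2, 2 sites in 14, 1 in 15 and none in 2. No such share was counted for other genes. Whether 12 differs from what 61.2% of sites above 0 would give was not tested. Site values for each genotype came as 1 column, so no spread between runs was seen. Reads at a site inside a transcribed gene include those of that gene's own transcript, and this need not be the assigned gene.

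Set side by side, both nascent RNA measures can be read per gene, although they come from different cells: tagged RevErbalpha in RAW cells, and both genes targeted in bone marrow macrophages. In 6 genes (Igf2bp2, Dot1l, Anxa5, Ier5 and Egr3 among them) all 3 sites were below 0 in 5'GRO-seq and both DKO runs were above both WT runs, which is 46.2% of the 13 genes with all sites below 0 and 46.2% of the 13 genes with DKO above WT. Of all 43 members 30.2% had DKO above WT, against 18.4% of all genes, and whether the overlap differs from these shares was not tested. The tagged library had a median difference of -0.23 over all sites, and 1 site of Egr3 was at only -0.09. Centred on that median, 9 members had all sites below 0, and the overlap was not recounted. The median GRO-seq difference was 0.16 in the 13 genes with all sites below 0 and 0.04 in the other 30. Across the 43 genes the mean 5'GRO-seq difference and the GRO-seq difference had a Spearman rho of -0.40, which was -0.34 without the 4 genes at -1 or less, -0.15 without WT run 2 and -0.26 without DKO run 1. It was -0.08 across all 1220 genes and -0.05 across the genes with 2 sites. These are descriptions across genes that share the same libraries, and no difference between them was tested.

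**Figure D5:**
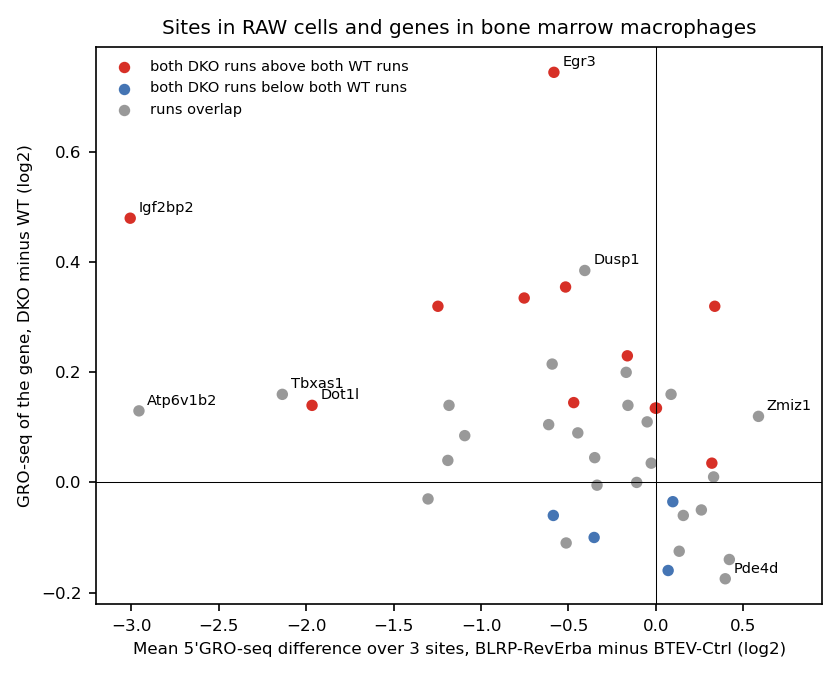
GRO-seq difference of the gene (DKO minus WT, log2) against the mean 5'GRO-seq difference of its 3 sites (BLRP-RevErba minus BTEV-Ctrl, log2) for 42 of the 43 genes, coloured by whether the runs of the genotypes overlap. The 4 genes furthest left are all above 0 on the vertical axis, as are 30 of all 43 members, and Egr3 stands high without low sites of that size. Of these 4, the runs of Atp6v1b2 and Tbxas1 overlap.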

How the data were processed

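The deposited summary table holds, per the file headers, log2 values at 1544 common sites: tags per 10000000 in 157 bp for ChIP-seq and in 500 bp for 5'GRO-seq, and GRO-seq values at sites and genes whose length scaling is not stated. All values were made by the authors on the log2 scale; Bowtie 0.12.7, HOMER and genome build mm9 are named in the submitters' processing notes. The deposited log2 values did not fall on steps of whole tags, so no count test was used. Tag numbers in the text are approximate and not scaled for depth. Site class, distance and assigned gene are the authors', with their plain enhancer label read as genic. The BirA-input column was taken to be the BirA pull-down, although it may be an input. Treated libraries are named in the header, and whether a run used here was treated is not stated. The other 3 deposited peak lists were not used.

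Run means and differences were computed with Python 3.11.15 and pandas 2.3.3, and lay within 0.01 of the authors' columns. Sites were counted past 1 on the log2 scale and genes past 0.5 with runs that do not overlap; the gene rule and the share of variance were tested on simulated data. Each group has 1 sample, so nothing was tested between conditions. Alternatives were another amount added before the logarithm, other thresholds, filters on low values, centring, merged sites, gene symbols in place of IDs, and each run left out.

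The members, lists and role groups were chosen with earlier results of these data known. Every member is named except 1, which is counted but not reported here; values are given in full for those past the gene rule, the 6 best bound, the 6 lowest and 3 highest in 5'GRO-seq, those with a site within 1 kb of the start or all sites within 10 kb, the 3 highest and lowest in GRO-seq level, and members of the lists. The lists held few members: Ras and MAP kinase regulators 2 of 13 in the table (Dusp1 and Mapkapk2, 1 with DKO above WT), macrophage transcription factors 4 of 19 (Atf3, Egr3 and Klf6 among them, 2 with DKO above WT), cytoskeleton and guidance 1 of 13 (Elmo1), coregulators and chromatin 1 of 9 (Zmiz1), and none in the nuclear receptor and clock, cytokine, innate sensing, lipid and lysosome, phosphoinositide and housekeeping lists. Members or not, DKO runs were above WT runs in 1 of the 13 Ras and MAP kinase regulators. For the 19 macrophage transcription factors it was 3, with 2 below, against 18.4% and 10.0% of all genes. In RefSeq (GRCm38.p6), used for names only, all 43 IDs were found, and 35 members were in the promoter table; site sequences on mm9 were not used here.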

Additional observations from a re-analysis of the deposited data

How the results depend on the processing

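With 1 sample per group, the values below show how counts move, not how far they would repeat. Binding medians, positions and the lower 5'GRO-seq sites apart from the threshold moved by less than their spread or 1.5 times under the alternatives run. The members' median GRO-seq difference also moved by less than its spread, but this spread, 0.101, was about as large as the value, 0.11. Without WT run 2 that median was 0.035, beside 0.03 over all genes. RevErbbeta minus RevErbalpha binding was 1.0 in the deeper runs and -0.0267 to 0.512 with 1 run left out, negative without RevErbbeta run 2. With a threshold of 0.5, 51 sites were lower in 5'GRO-seq (36.3% of all sites) and 19 higher (14.4%). With 10 added before the logarithm 2 were higher (2.20%), and above the lower quartile of signal 4 (3.81%). With that filter 5 genes had all sites below 0, where a gene with any site not above the quartile was counted as failing. The share of variance between genes was 1.5% without the 4 genes with all sites at -1 or less, which lowers it by construction, an alternative chosen after seeing the data, like the 32.5% with 10 added and both further settings for runs apart (genes above the median level, and centring). For GRO-seq at sites, 19 were higher (13.5% of all sites) and 10 lower (10.7%) at 0.5, 0 (0.194%) and 0 (0.00%) with 10 added, 4 higher with close sites merged and 8 with the named symbols kept in (3.37% for both). Genes higher by the gene rule numbered 7 at 0.3 (6.15% of all genes), 0 at 1 (0.574%), 0 above the lower quartile of level (0.765%), 4 with the named symbols kept in (1.97%) and 1 to 5 with 1 run left out (2.70 to 5.49%); genes with runs apart were 15 to 30 upward (28.6 to 43.9% of all genes) and 6 to 11 downward (22.2 to 28.4%) with 1 run left out, where fewer runs must separate. The cause of the other moves was not tested. The shallowest RevErb runs held about 3 to 5 tags at the median site, and 8 member sites held under 1 tag in a 5'GRO-seq library. No paired analysis was possible because each group has 1 sample and the labels give no shared replicate numbers.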
